A study of Homo sapiens with 8 samples.

Results

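Chromosome 20 carried 3068 of the 65646 G-quadruplex (G4) intervals in the 4 deposited lists, and all of them are described here. The members were selected on one property, a position on chromosome 20 in the list of peaks called from the sequencing reads, so the number of intervals and the balance between the cell lines are given as a description. K562, a chronic myelogenous leukemia line that grows in suspension, and HepG2, an adherent liver cancer line, were each profiled without treatment by chromatin immunoprecipitation (ChIP) with the G4 antibody BG4. The labels name 3 G4 ChIP samples and 1 input sample without antibody per line. The lists pool 8 K562 and 9 HepG2 replicates. The study describes 3 independent experiments per line, each with 2 to 3 technical replicates. The pooled replicates are therefore not all independent of each other. The study also considered earlier G4 ChIP-seq data of K562. Whether these are among the pooled K562 replicates could not be read from the lists. High confidence meant a call in 5 or more of the 8 K562 replicates, or in 6 or more of the 9 HepG2 replicates. The lower-confidence list asked for 2 or more in either line. Each line stands for 1 culture history, and both are aneuploid. HepG2 is known to carry extra copies of chromosome 20, copy number was not analysed here, and it cannot be told apart from other differences between the lines. The lists give positions only, without height, depth or replicate values, so the labelled cell types could not be checked against marker expression.

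A G4 is a 4-stranded DNA structure that forms where runs of guanines stack into planar quartets held by hydrogen bonds between the bases. In chromatin these structures are found mainly in nucleosome-depleted promoters of active genes, and many transcription factors occupy the same sites. Chromosome 20 is a gene-rich autosome whose long arm is gained in many epithelial cancers, and it carries the hepatocyte regulator HNF4A, the Notch ligand JAG1, the kinase AURKA and the imprinted GNAS locus.

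The sequences that follow are G4 motifs from peaks that the results return to, chosen from the widest peaks of each class. The motif searched was 4 runs of at least 3 G (GGG or longer) separated by loops of 1 to 7 bases of any kind, on either strand, without overlap on a strand. Where a peak held several, the motif nearest to its centre is shown. Distances run from the nearest annotated start site of a gene, which for SNX5 lies inside the gene. All were read from the GRCh37 reference sequence in the coordinates of hg19, each is written 5′ to 3′ on its own strand, and capitals mark the runs of G.
RALY promoter, common peak, chr20:32581351-32581371, minus strand: GGGGctGGGGcGGGaagaGGG
ZNF217 promoter, common peak, chr20:52210906-52210935, minus strand: GGGGccGGGGcggtgtGGGGcgtggccGGG
STMN3 intron, common peak, chr20:62273363-62273383, minus strand: GGGGccGGGGcGGGGGcaGGG
FNDC11 promoter, K562 high-confidence and HepG2 lower-confidence, chr20:62184933-62184959, plus strand: GGGaGGGGccgttgcGGGGGaGGGGGG
DNMT3B promoter, K562-only peak, chr20:31350058-31350085, minus strand: GGGGGGaacGGGGGGGcGGGGacgaGGG
PRELID3B promoter, K562-only peak, chr20:57617937-57617957, minus strand: GGGccGGGataGGGcgtGGGG
JAG1 promoter, HepG2-only peak, chr20:10654800-10654827, plus strand: GGGGttGGGGGcagcGGGatgctcaGGG
LIME1 promoter, HepG2-only peak, chr20:62369423-62369444, plus strand: GGGcGGGGcGGGGGcggccGGG
Downstream of the ID1 start, HepG2-only peak, chr20:30196499-30196522, minus strand: GGGGGcggaGGGGcaGGGcGGGGG
HNF4A intron, HepG2-only peak, chr20:43040161-43040178, plus strand: GGGaGGGGtgtGGGcGGG
Between genes, 84400 bp downstream of the SNX5 start, HepG2-only peak, chr20:17839752-17839775, minus strand: GGGtggatGGGctGGGGactGGGG
The high-confidence peaks shown at promoters and in the STMN3 intron had 67.6% to 80.9% GC, and the 3 HepG2-only peaks away from promoters 57.8% to 65.7% GC. Of all 200 bp tiles of chromosome 20, 3.14% held a motif, and of the 1 kb stretches upstream of the outermost start sites of its coding genes, 51.2% did.

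Chromosome 20 held more intervals of HepG2 than of K562 in both kinds of list. The high-confidence lists placed 235 of 9205 K562 peaks (2.55%, 95% interval 2.25 to 2.90) and 437 of 8805 HepG2 peaks (4.96%, 4.53 to 5.44) on it. In the lower-confidence lists it took 503 of 19249 K562 intervals (2.61%) and 1893 of 28387 HepG2 intervals (6.67%). The chromosome makes up 2.08% of the sequence without N and 2.70% of protein-coding genes. Per Mb of such sequence, HepG2 had 7.34 high-confidence peaks against 2.98 on the other chromosomes, and K562 had 3.95 against 3.20. The ratio of HepG2 to K562 was 1.86 for high-confidence peaks, the second highest of 23 chromosomes after chromosome 14 at 1.89, and 3.76 for the lower-confidence list, the highest, followed by chromosome 14 at 3.01. Intervals around shares and differences are Wilson and Newcombe intervals and cover the counting of intervals only, since the lists keep no replicates to compare.

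**Figure D1:**
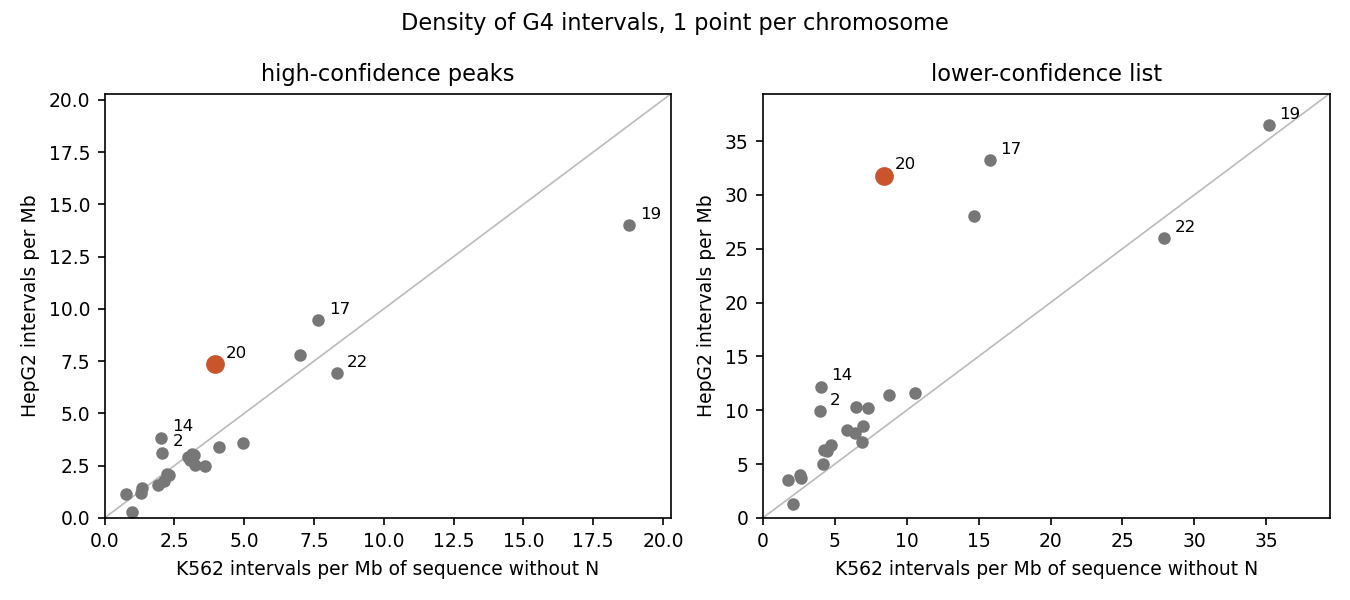
Each point is 1 chromosome, with K562 intervals per Mb of sequence without N on the x axis and HepG2 intervals per Mb on the y axis, for high-confidence peaks (left) and the lower-confidence list (right); the grey line marks equal density. Chromosome 20 (orange) lay above the line in both panels, at 3.95 and 7.34 per Mb on the left and 8.45 and 31.8 per Mb on the right.

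Of the 235 K562 high-confidence peaks on chromosome 20, 153 (65.1%) were common, meaning that they overlapped a high-confidence HepG2 peak by at least 1 bp, against 51.1% of K562 peaks on all chromosomes. A further 35 (14.9%, against 24.5% on all chromosomes) met only a lower-confidence HepG2 interval and are called weak. The remaining 47, against 24.4% on all chromosomes, met no HepG2 interval and are called K562-only. HepG2 showed the opposite balance. Of its 437 peaks, 157 (35.9%) were common, against 53.9% on all chromosomes, 75 (17.2%, against 13.2%) were weak in K562, and 205 (46.9%, against 32.9%) were HepG2-only. The common share was the lowest and the HepG2-only share the highest of 23 chromosomes. Against the 3 chromosomes that followed it in the ratio of HepG2 to K562 lower-confidence intervals, the HepG2-only share was 3.25 points above that of chromosome 14 (95% interval -3.80 to 10.2), 6.77 points above that of chromosome 17 (0.917 to 12.6) and 7.61 points above that of chromosome 2 (1.77 to 13.4). These differences are a description, because chromosome 20 was chosen with earlier results of these data known. Without the last 3 Mb of the long arm the HepG2-only share was 46.6%.

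Below the high-confidence threshold the imbalance was larger. HepG2 had 1476 lower-confidence intervals that contained no high-confidence peak, of which 1362 (92.3%, against 76.4% on all chromosomes) met no K562 interval. K562 had 277 such intervals, of which 118 (42.6%, against 66.3%) met no HepG2 interval. In HepG2 417 of the 1893 lower-confidence intervals of the chromosome contained a high-confidence peak, against 29.7% elsewhere. This difference of -7.67 points (95% interval -9.56 to -5.67) was not seen up to 60 Mb, where the share was 30.9% (1.23 points above the other chromosomes, -1.43 to 4.01). In the last 3 Mb it was 8.22%.

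The common peaks of chromosome 20 were also wider in HepG2. The widths come from the same replicate calls as the counts of intervals, so they are not independent of the balance between the lines and are a description. Of 148 K562 common peaks with a single HepG2 partner, the HepG2 peak was the wider in 96 (64.9%, 56.9 to 72.1), against 37.9% of 4441 such pairs on other chromosomes. The difference was 27.0 points (18.9 to 34.3), and the median HepG2 minus K562 width was 35.0 bp on chromosome 20 and -27.0 bp elsewhere. The short arm had the HepG2 peak wider in 26 of 33 pairs (78.8%) and the long arm in 60.9%, and their 95% intervals overlapped. On chromosome 14 the HepG2 peak was wider in 72.8% of pairs, on chromosome 17 in 54.6% and on chromosome 19 in 34.7%.

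In steps of 5 Mb the intervals of both lines followed the same broad map, given here without a test. The step at 30 to 35 Mb, just beyond the centromere gap on the long arm, had the highest count in both, with 60 K562 and 79 HepG2 high-confidence peaks. That step holds 89 coding genes, among them RALY, E2F1, ASXL1, BCL2L1 and DNMT3B. The shorter last step, 60 to 63 Mb, held 42 K562 and 66 HepG2 peaks and was the densest per Mb of sequence in both lines (14.7 against 12.1 per Mb at 30 to 35 Mb in K562), the step at 0 to 5 Mb 25 and 50, and the step at 45 to 50 Mb, with CEBPB, PTPN1 and NCOA3, 24 and 66. The 3 steps with the highest counts in each line held 54.0% of the K562 and 48.3% of the HepG2 peaks. Across the 13 steps the counts of the lines had a Pearson r of 0.91 and a Spearman rho of 0.84, steps being of unequal gene content and sharing GC composition. Gene number per step followed the K562 count with a rho of 0.89 and the HepG2 count with a rho of 0.75.

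The 3 steps with the fewest K562 high-confidence peaks, from 5 to 20 Mb, lay on the short arm. Between 10 and 15 Mb, a step with 13 coding genes that include JAG1 and the synaptic gene SNAP25, K562 had 0 high-confidence peaks and HepG2 had 9, its lowest count together with the step at 55 to 60 Mb on the long arm. The longest stretch without a K562 high-confidence peak was chr20:5591839-16554103, with 30 coding genes. In HepG2 the longest such stretch was 2.77 Mb, also on the short arm, while the longest stretch without a HepG2 lower-confidence interval, chr20:52825104-54933793, lay on the long arm. The step at 55 to 60 Mb, which holds PCK1, CTCFL and GNAS, was the only one of the 13 with more K562 peaks (12) than HepG2 peaks (9).

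**Figure D2:**
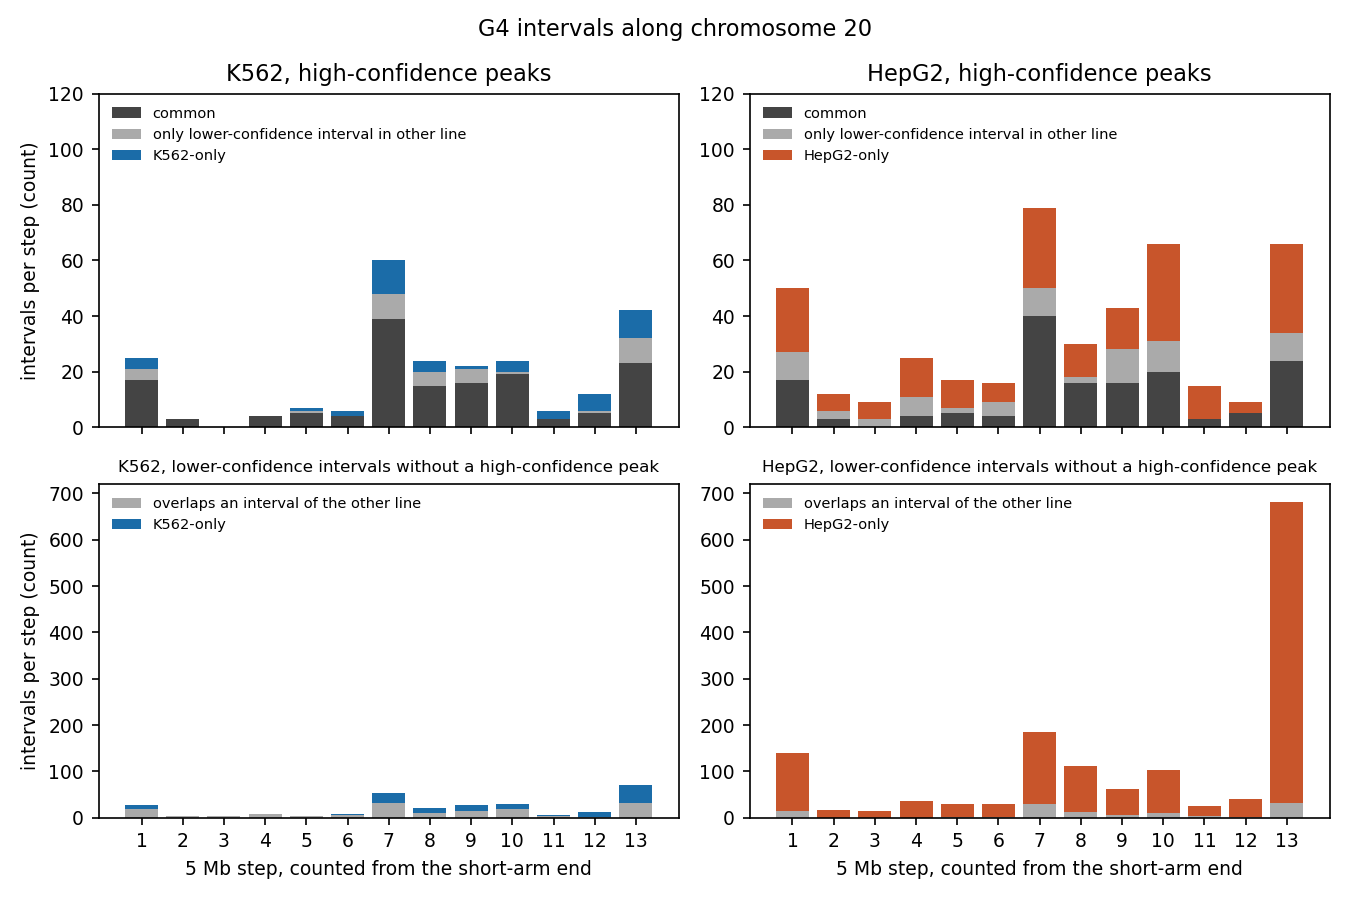
Bars give the number of intervals (y axis, count) in each 5 Mb step counted from the short-arm end (x axis), for K562 on the left and HepG2 on the right, with high-confidence peaks above and lower-confidence intervals without one below, coloured by their overlap with the other line. Step 7 had the highest count of high-confidence peaks in both lines (60 and 79), and step 13 stood far above the rest for HepG2 lower-confidence intervals (681).

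The arms differed in how the lines compared at gene promoters. A promoter state is read from the same intervals as the balance between the lines, so these contrasts describe that balance too. The short arm, 26.3 Mb without N and 184 coding genes, held 43 K562 and 129 HepG2 high-confidence peaks, and the long arm, 33.2 Mb and 361 coding genes, held 192 and 308. K562 had a high-confidence peak in the 1 kb upstream of a start site in 34 of 184 short-arm genes (18.5%) and 147 of 361 long-arm genes (40.7%). The difference was -22.2 points (95% interval -29.4 to -14.3). HepG2 had one at 73 of 184 (39.7%) and 150 of 361 (41.6%), a difference of -1.88 points (-10.4 to 6.88).

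Where a coding gene had a high-confidence promoter peak in 1 of the lines, the line depended on the arm. On the short arm 43 of 47 such genes had it in HepG2 (91.5%, 80.1 to 96.6), and on the long arm 36 of 69 (52.2%, 40.6 to 63.5), a difference of 39.3 points (23.2 to 52.0). The 4 short-arm exceptions were TCF15, FAM110A, NSFL1C and CENPB. In 30 of the 43 genes K562 had a lower-confidence interval there, as at MCM8, TRIB3, SNRPB, PSMF1 and MGME1, and in 13 it had no interval in either list, as at JAG1, BTBD3, FERMT1, SMOX and CRNKL1. These genes were named after their values were seen. On the other chromosomes 34.4% of 3374 such genes had the peak in HepG2, which was 33.7 points below chromosome 20 as a whole (24.6 to 41.6). Chromosome 20 was chosen with earlier results of these data known, so this comparison with other chromosomes is a description. Neighbouring genes can share a promoter, so the genes are not independent of each other, and the interval of the difference is too narrow to that extent.

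**Figure D3:**
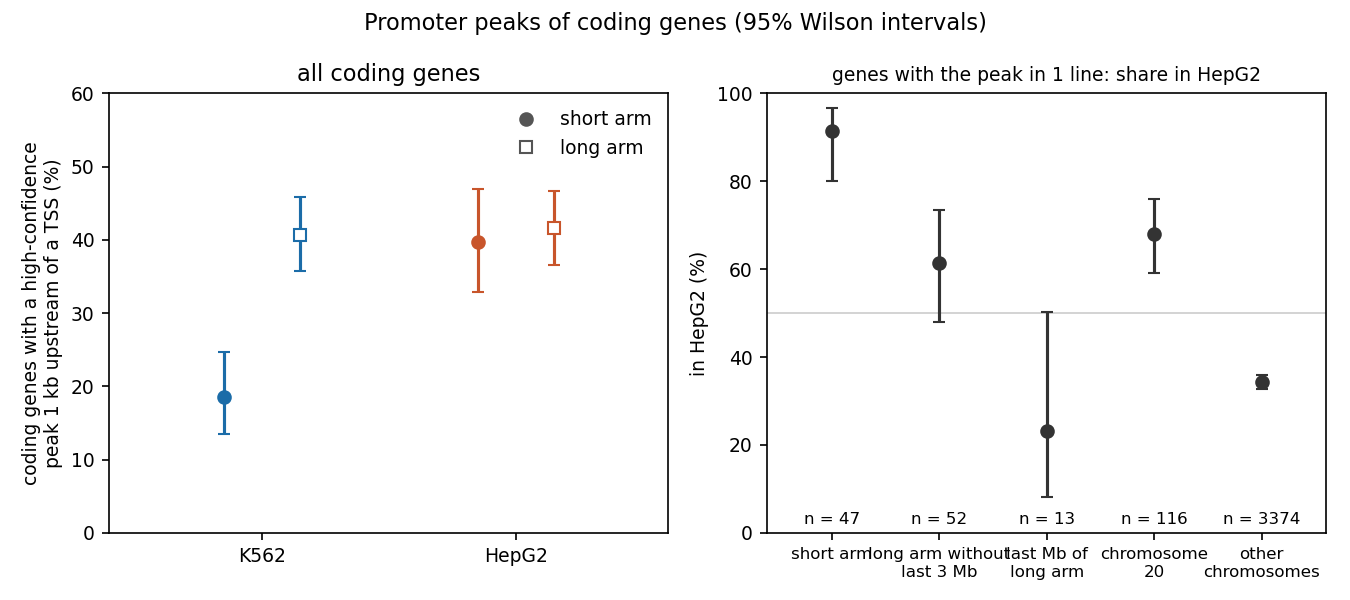
Left, the percentage of coding genes with a high-confidence peak in the 1 kb upstream of a start site, by line and arm; right, among genes with such a peak in 1 line, the percentage with it in HepG2, for stretches of chromosome 20 and for the other chromosomes. Points are shares and bars 95% Wilson intervals; K562 stood at 18.5% on the short and 40.7% on the long arm, and the share in HepG2 ran from 91.5% on the short arm to 23.1% in the last Mb of the long arm.

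Among the high-confidence peaks the arms differed in HepG2 in the share that K562 also had. Of the HepG2 peaks, 33 of 129 (25.6%) were common on the short arm and 124 of 308 (40.3%) on the long arm, a difference of -14.7 points (-23.4 to -4.94). The share that was weak in K562 was 23.3% and 14.6%, a difference of 8.65 points (0.847 to 17.4). In K562 the common share was 76.7% and 62.5% (14.2 points, -1.65 to 26.6). The line-only shares differed by less than counting error. The K562-only share was 11.6% on the short and 21.9% on the long arm (difference -10.2 points, -19.4 to 3.64), and the HepG2-only share was 51.2% and 45.1% (6.03 points, -4.17 to 16.1). The promoter shares were 83.7% and 78.1% in K562 and 80 of 129 peaks and 53.9% in HepG2, with intervals of the difference from -9.07 to 15.9 and from -2.09 to 17.8 points. The lower-confidence K562 intervals that contained no high-confidence peak did differ. On the short arm 72.2% reached a promoter and 18.5% were K562-only, against 42.2% and 48.4% on the long arm, differences of 30.1 (15.4 to 42.0) and -29.9 points (-40.3 to -16.0).

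Common peaks lay at promoters and HepG2-only peaks mostly did not. A peak counted as a promoter peak when it reached the 1 kb upstream of any annotated start site. In K562 139 of 153 common peaks (90.8%) and 21 of 47 K562-only peaks (44.7%) were promoter peaks, a difference of 46.2 points (31.0 to 59.9). In HepG2 the counts were 141 of 157 (89.8%) and 57 of 205 (27.8%), a difference with a 95% interval of 53.3 to 68.9 points. The K562-only peaks reached promoters more often than the HepG2-only peaks, by 16.9 points with a 95% interval that left out 0. For common and line-only peaks the promoter share of chromosome 20 differed from that of the other chromosomes by less than counting error, from -1.17 points for K562 common peaks (-6.85 to 2.54) to -11.9 points for K562-only peaks (-25.3 to 2.34). HepG2 peaks that were weak in K562 reached promoters in 64.0%, against 75.9% elsewhere (-11.9 points, -23.5 to -1.64), and K562 peaks that were weak in HepG2 in 74.3%, against 83.2% (-8.96 points, -25.4 to 2.71).

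By the position of their centre, 38.0% of HepG2-only peaks lay in introns, 25.4% upstream of a start site and 23.9% between genes. The intergenic share was 6.27 points above that of HepG2-only peaks on other chromosomes (0.738 to 12.7). Of the K562-only peaks, 42.6% lay in introns, 18.0 points above the other chromosomes (4.78 to 32.2), and 6.38% lay between genes. The 7 location classes were compared for each class of peak, and no interval was adjusted for their number.

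The classes also differed in sequence. In HepG2 52 of 157 common peaks (33.1%) and 19 of 205 HepG2-only peaks (9.27%) held a motif of the kind printed above, a difference of 23.9 points (15.5 to 32.2). In K562 49 of 153 common (32.0%) and 11 of 47 K562-only peaks (23.4%) did, a difference of 8.62 points that was within counting error (-6.81 to 21.1). Common peaks were wider, with medians of 215 bp in K562 and 245 bp in HepG2 against 150 bp for the line-only peaks of either line. In windows of 200 bp around the centre the K562 shares were 30.1% of common and 42.6% of K562-only peaks, and the HepG2 shares were 32.5% and 14.1%, so the direction held in HepG2 and turned in K562 (-12.5 points, -28.2 to 2.65). Median GC content was 72.0% for common and 67.6% for K562-only peaks in K562, and 71.4% for common and 58.1% for HepG2-only peaks in HepG2. The ratio of observed to expected CpG had medians of 0.91 and 0.73 in K562 and 0.87 and 0.29 in HepG2.

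**Figure D4:**
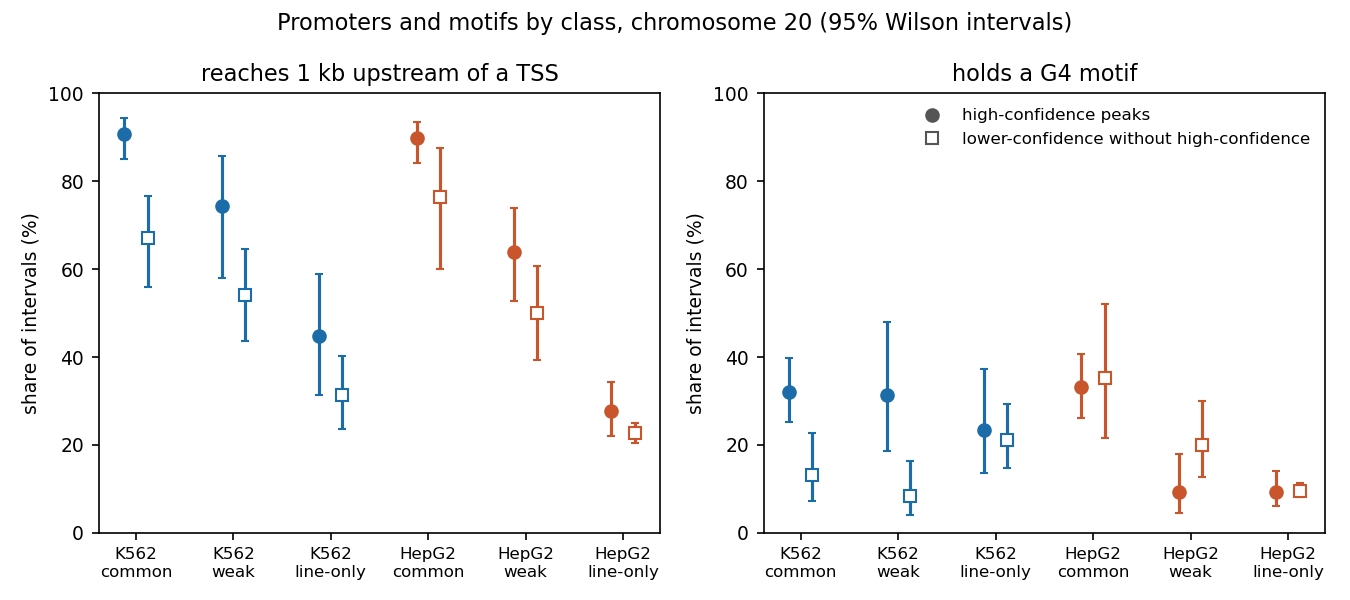
The percentage of intervals (y axis) that reached the 1 kb upstream of a start site (left) or held a G4 motif (right), for each line and class on chromosome 20; filled circles are high-confidence peaks, open squares lower-confidence intervals without one, bars 95% Wilson intervals, and line-only means no interval in the other line. The promoter share fell from 89.8% for common to 27.8% for line-only high-confidence peaks in HepG2 and from 90.8% to 44.7% in K562.

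The widest peak of both lines was the same one. At the RALY promoter, upstream of the gene for an RNA-binding protein of the hnRNP family, K562 had a peak of 752 bp at chr20:32580925-32581676 and HepG2 a peak of 778 bp at chr20:32580885-32581662. Both held 3 motifs, including the RALY motif printed above. The second was at the promoter of ZNF217, a zinc finger transcription factor amplified in breast cancer, with 592 bp in K562 and 650 bp in HepG2. At the promoter of PHF20, a reader of methylated histones, K562 had 566 bp with 4 motifs and HepG2 245 bp. Outside promoters the widest common peaks lay at -2102 bp from the start of MRGBP (430 bp in K562 and 454 bp in HepG2) and in an intron of STMN3, a stathmin family gene (398 bp and 455 bp, with 6 motifs in each).

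The widest K562-only promoter peak, 334 bp at chr20:44539452-44539785, was centred at -43 bp from the start of PLTP, which encodes a plasma lipid transfer protein, and held no motif. It was followed by PRELID3B (293 bp, 2 motifs) and the promoter shared by ACTL10 and NECAB3 (289 bp, no motif). At 280 bp the peak centred at -112 bp from the start of DNMT3B, a de novo DNA methyltransferase, held 4 motifs, the most of any K562-only peak. TP53RK, PXMP4, MYH7B, MMP24OS, SLCO4A1 and CTCFL, the germline relative of CTCF, had K562-only promoter peaks of 250 to 180 bp. Outside promoters the widest were in introns of DLGAP4 (297 bp), TGM3 (269 bp) and LAMA5 (261 bp).

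Among HepG2-only peaks at promoters of coding genes the widest was 433 bp at chr20:61298238-61298670, at an internal start site of the anion transporter gene SLCO4A1. The K562-only peak of the same gene lay at its first promoter, chr20:61273656-61273838, so the lines used different positions in 1 gene. JAG1 (293 bp, 2 motifs), the promoter shared by CFAP61 and the splicing factor gene CRNKL1 (292 bp), LIME1 (285 bp, 2 motifs) and SLC17A9 (263 bp, 1 motif) followed. At the noncoding gene LINC01273 a HepG2-only promoter peak of 339 bp held 1 motif. PCK1, the rate-limiting enzyme of gluconeogenesis, had a peak of 221 bp centred at -122 bp from its start, and HNF4A, the nuclear receptor that governs hepatocyte genes, a peak of 209 bp at chr20:42984132-42984340. BTBD3, SGK2 and ZMYND8 completed the 10 widest at coding genes, with 218, 210 and 210 bp. The peaks of PCK1, BTBD3, SGK2, ZMYND8 and HNF4A held no motif.

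Outside promoters the widest HepG2-only peak lay 3401 bp downstream of the start of ID1, an inhibitor of helix-loop-helix factors (437 bp, 2 motifs). The next lay 79720 bp downstream of an annotated start inside SNX5 (421 bp, 1 motif). It was followed by a peak 257376 bp downstream of an annotated start inside PREX1 (418 bp, no motif). Introns of HNF4A held peaks of 368 and 334 bp, the second with the motif printed above.

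HepG2-only peaks also stood in rows, a description drawn up after the values were seen. With gaps of at most 50 kb between neighbours and at least 4 peaks, 70 of the 205 fell into 12 rows, and none of the 47 K562-only peaks did. The larger number of HepG2-only peaks alone gives closer neighbours, so the counts are not compared. The largest row, 10 peaks at chr20:62592600-62685895, ran across ZNF512B, PRPF6 and TCEA2 and held 2 K562 high-confidence peaks. Some of the other rows are named here. The row at chr20:17835080-17877755 had 7 peaks between genes. The row at chr20:22471517-22514900 had 4, with FOXA2, a hepatocyte pioneer factor, as the nearest coding gene. The row at chr20:42984132-43063049 held 5 peaks along HNF4A from its start to just past its end. None of these 3 rows held a K562 interval of either list. Between CEBPB and PTPN1, chr20:48921956-49015835 held 7 HepG2-only peaks beside 1 K562 high-confidence peak. In NOL4L, 142 kb long, each line had 7 high-confidence peaks, and all 7 of HepG2 were HepG2-only while 3 of the K562 peaks were K562-only.

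Across the 545 coding genes of chromosome 20, HepG2 had a high-confidence promoter peak at 223 (40.9%, against 29.6% of all coding genes) and K562 at 181 (33.2%, against 34.6%). Against the other chromosomes the difference was 11.7 points in HepG2 (7.57 to 15.9) and -1.40 points in K562 (-5.29 to 2.71). These differences are read from the same intervals as the balance between the lines and are a description. Both lines had a peak at 144 genes (26.4%, against 23.3% on other chromosomes). Neither had any interval at 205 (37.6%, against 43.7%). K562 alone, with no HepG2 interval, had a peak at 14 genes (2.57%, against 3.19% on other chromosomes). They included DNMT3B, PLTP, CTCFL, the proteasome subunit gene PSMA7, the Rac exchange factor gene PREX1 and RAB22A. HepG2 alone had a peak at 26 (4.77%, against 2.19%), which included HNF4A, PCK1, JAG1, UBE2C, TTI1 and SMOX. A further 53 genes were high-confidence in HepG2 and lower-confidence in K562 (9.72%, against 3.73%), and 23 the reverse (4.22%, against 8.10%).

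Promoter peaks were counted in groups of 10 to 22 chosen genes of general cell function. Of all coding genes of the chromosome, 33.2% had one at high confidence in K562 and 40.9% in HepG2. The groups were not tested against these shares or each other. A line named as lacking such a peak can still have a lower-confidence interval there. K562 had one at SNRPB, ESF1, DDX27, MCM8, TPX2 and MYBL2, and HepG2 at RTEL1. Of 22 genes of RNA processing and translation, 15 had a high-confidence promoter peak in both lines (RRBP1, RALY, EIF2S2, EIF6 and NOP56 among them), and HepG2 and not K562 had one at SNRPB, ESF1, CRNKL1 and DDX27. Of 20 genes of DNA replication and cell division, K562 had a peak at 10 and HepG2 at 14. Both lines had one at PCNA, CDC25B, GINS1, E2F1 and AURKA, HepG2 and not K562 at MCM8, TPX2, TTI1, MYBL2 and UBE2C, and K562 and not HepG2 at RTEL1. The ubiquitin and proteasome group counted 4 of 10 in K562 and 8 of 10 in HepG2, with PSMA7 in K562 alone. A further 5 of the 10 had a lower-confidence interval in K562. Nuclear genes of mitochondrial proteins counted 5 and 8 of 11, membrane traffic genes 13 and 12 of 18, and zinc finger genes 8 and 7 of 14. Genes of the 20q amplicon counted 11 and 14 of 19, with BCL2L1, ASXL1, NCOA3, CSE1L and ZNF217 in both.

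Of 15 hepatocyte and liver metabolism genes, K562 had a peak at 7 and HepG2 at 9. Both lines had one at AHCY, ACSS2, GSS, LPIN3, TTPAL and CEBPB, HepG2 without K562 at GGT7, HNF4A and PCK1, and K562 without HepG2 at PLTP. At GGT7 K562 had a lower-confidence interval. FOXA2, HAO1, LBP and PROCR had no promoter interval in either line. Of 18 blood cell genes, K562 had a peak at 5 and HepG2 at 6, ASXL1, SAMHD1, L3MBTL1 and PTPN1 in both, PREX1 in K562 and LIME1 among those in HepG2 without K562. The counts of these lists are a description of chosen genes and were not tested.

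The tissue-restricted clusters were nearly empty. No high-confidence promoter peak was found in either line at 13 beta-defensin, 11 cystatin or 5 SIRP genes. The 18 WFDC and semenogelin genes had 1 in HepG2, at WFDC3, and the 9 BPI fold genes 1 in HepG2, at BPIFB2. Of 23 neuronal genes K562 had a peak at STMN3 and OPRL1 and HepG2 at 0, with 6 at lower confidence in HepG2. Developmental transcription factor genes counted 5 of 21 in K562 and 4 in HepG2, with SOX12, ID1, TGIF2 and SNAI1 in both lines and TCF15 in K562. Of 5 imprinted genes, L3MBTL1 had a peak in both lines and BLCAP in HepG2. At WFDC3 and BLCAP K562 had a lower-confidence interval.

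The end of the long arm was crowded with HepG2 lower-confidence intervals. From 60 to 63 Mb HepG2 had 681 lower-confidence intervals that held no high-confidence peak, 46.1% of its 1476 on the chromosome, in 2.87 Mb of sequence. K562 had 71 there. By Mb, HepG2 had 156, 246 and 279, and K562 14, 18 and 39. Among 1970 windows of 1 Mb with any such HepG2 interval genome-wide, 62 to 63 Mb ranked 1st, ahead of a window of chromosome 17 with 252, and the median window held 4. The other 2 windows ranked 3rd and 4th. In K562 the block ranked 28 of 1728.

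In this block at 62 to 63 Mb the HepG2 share of the lower-confidence intervals of both lines was 87.7% (83.7 to 90.9), against 83.4% up to 62 Mb and 64.5% on other chromosomes. The difference from the rest of the chromosome was 4.32 points (-0.136 to 8.07). For a window shifted by 0.5 Mb towards the centromere it was 8.98 points (4.99 to 12.3). The block was named with its counts known, so these differences are a description and were not tested. The HepG2 share of high-confidence peaks was 58.0% in the block (44.2 to 70.6) and 65.6% up to 62 Mb. Of the 279 HepG2 intervals, 258 were HepG2-only, with a median gap of 762 bp between neighbours. They covered 4.38% of the block, 40.1% were centred in introns, 27.6% upstream of a start site and 15.8% in exons, and 12.2% held a motif. The block has a GC content of 55.9%, against 44.1% for the chromosome, and the part of base composition in these counts was not tested.

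Single genes held many of these intervals. LAMA5, which encodes a laminin chain, held 58 in HepG2 and 8 in K562 within its 59.4 kb. CHRNA4, a nicotinic receptor subunit gene, held 20 and 0. HELZ2, a helicase gene, held 26 and 0, RTEL1, a helicase gene that acts on telomeres and G4 structures, 24 and 1, and MYT1, a neural transcription factor gene, 23 and 2. LAMA5, which lies outside the block, was named after its count was seen.

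At the promoters of the block K562 peaks outnumbered HepG2 peaks. Of its 36 coding genes, 21 had a high-confidence promoter peak in K562 (58.3%, 42.2 to 72.9) and 14 in HepG2 (38.9%, 24.8 to 55.1). Up to 62 Mb the shares were 31.4% in K562 and 41.1% in HepG2. The K562 share of the block was 26.9 points above that of the rest (10.2 to 41.9), and the HepG2 share -2.17 points from it (-16.9 to 14.6). Of the 13 block genes with such a peak in 1 line, 3 had it in HepG2 (23.1%), against 76 of 103 in the rest (73.8%), a difference of -50.7 points with a 95% interval that left out 0. The 3 were LIME1, C20orf204 and an unnamed gene that overlaps LIME1 and shared its HepG2 peak. Neighbouring genes of the block can share a promoter and a peak, so the intervals of these differences are too narrow to that extent. The block was named with its counts known and promoter states are read from the same intervals, so these differences are a description. Counted as peaks, 17 K562 and 14 HepG2 high-confidence peaks of the block reached a promoter. From 60 to 62 Mb the count was also higher in K562, at 17 of 30 coding genes against 15 in HepG2, with 3 genes high in K562 and not in HepG2 and 1 the reverse.

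In 9 block genes K562 was high-confidence and HepG2 lower-confidence, namely FNDC11, STMN3, RTEL1, the RTEL1-TNFRSF6B readthrough, ARFRP1, ZGPAT, ZBTB46, RGS19 and OPRL1. HepG2 had 2 to 6 lower-confidence intervals upstream of a start site at each of them. PPDPF had a K562 peak and no HepG2 interval. Both lines had a high-confidence peak at 11 genes, which include PTK6, GMEB2, SLC2A4RG, TPD52L2, DNAJC5, UCKL1, SAMD10, PRPF6, TCEA2 and PCMTD2. HELZ2 and ZNF512B were lower-confidence in both lines. CHRNA4, SRMS, TNFRSF6B and NPBWR2 were among the genes with lower-confidence intervals in HepG2 alone, 8 of them upstream of start sites at CHRNA4. SOX18 and MYT1 had a lower-confidence K562 interval and no HepG2 interval upstream, and EEF1A2, ABHD16B and LKAAEAR1 had none in either line.

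**Figure D5:**
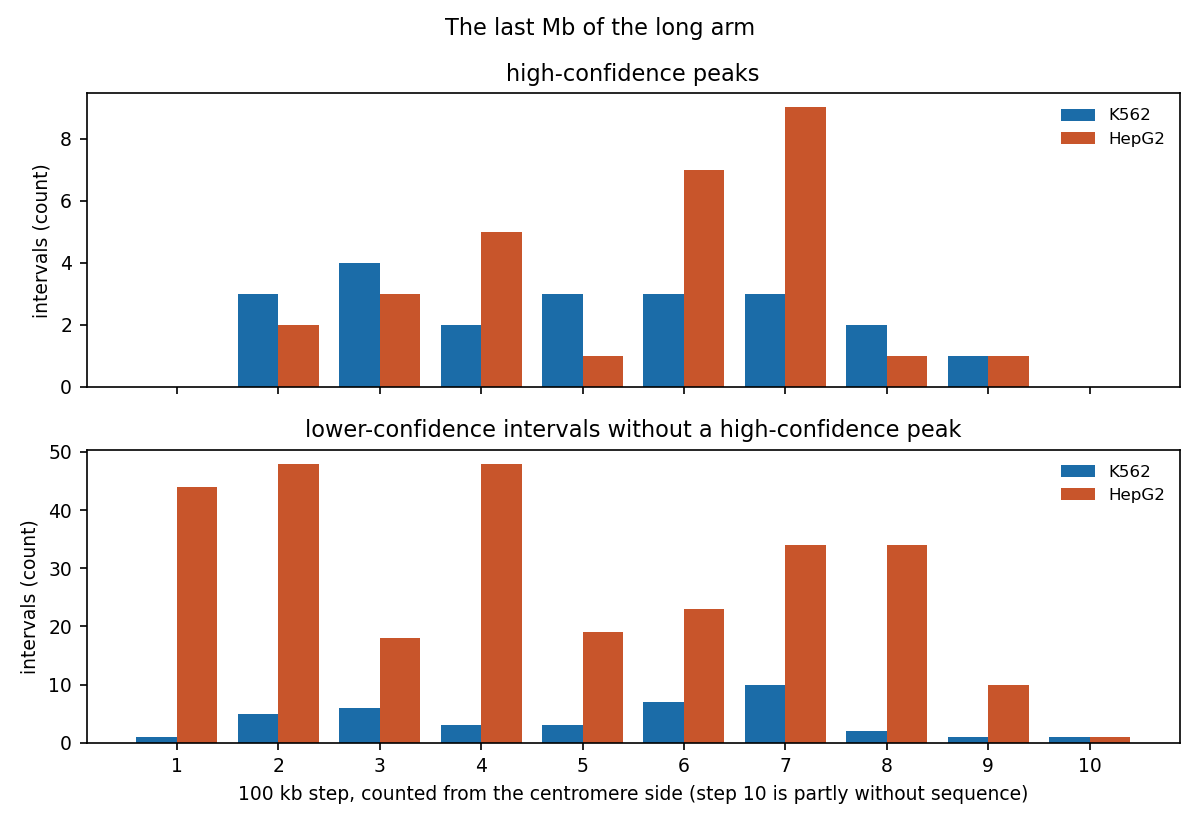
Bars give the number of intervals (y axis, count) of K562 (blue) and HepG2 (orange) in steps of 100 kb across the last Mb of the long arm (x axis), with high-confidence peaks above and lower-confidence intervals without one below. HepG2 lower-confidence intervals outnumbered those of K562 in 9 of the 10 steps, with 44, 48 and 48 in steps 1, 2 and 4, while HepG2 high-confidence peaks were fewer than or equal to those of K562 in 7 of them.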

How the data were processed

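G4 ChIP-seq with the antibody BG4 was performed on K562 and HepG2 chromatin. Per the labels and the study's methods, the authors aligned the reads (BWA, hg19), marked duplicates (Picard), removed them (samtools) and called peaks in every replicate (MACS2, q-value maximum of 0.05). Regions shared by enough replicates were then kept (bedtools). The deposited lists hold positions only. No depth, height or replicate can be read from them, so the precision of each sample is unknown and no test between replicates was possible.

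Members and gene lists were chosen with earlier results of these data known. Both hg19 and the GRCh37 reference have a chromosome 20 of 63025520 bp. Intervals were compared in Python 3.11.15 with an overlap of 1 bp, against GENCODE 44 lifted to GRCh37, with coding genes merged by symbol. Arms were split at the centromere gap. Shares carry 95% Wilson intervals, and differences 95% Newcombe intervals, called where they left out 0. Differences from other chromosomes in the balance between the lines are a description and were not called. The same holds for the differences of the block at 62 to 63 Mb. Functions were tested on simulated intervals and sequences. Named peaks were the widest of each class and line, named coding promoters the 10 widest line-only peaks per line, named steps the 3 fullest, and the coding genes of the block at 62 to 63 Mb were listed; some named items are not reported here. Each of the 17 gene lists is given by its counts. Alternatives varied overlap, width, merging, promoter and motif definitions. The 29 HepG2 high-confidence peaks outside chromosomes 1 to 22, X and Y were left out of background shares.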

Additional observations from a re-analysis of the deposited data

Results flagged for a closer look

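The share of HepG2 among coding genes with a high-confidence promoter peak in 1 line differed between the arms of chromosome 20 by 39.3 percentage points (short minus long arm, 95% Newcombe interval 23.2 to 52.0). The short arm counted 43 genes in HepG2 and 4 in K562, and the long arm 36 and 33. Without the last 3 Mb of the long arm the long arm counted 32 and 20, and the 95% interval of the difference was 13.4 to 44.5 points. The comparison was made after the gene counts by arm had been seen.

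The lines differed in how strongly the G4 motif separated common from line-only peaks. The odds ratio of holding a motif, common against line-only, was 1.54 in K562 (0.724 to 3.28) and 4.85 in HepG2 (2.72 to 8.64), and the ratio of these, K562 divided by HepG2, was 0.318 (0.123 to 0.823). The matching ratio for promoters was 0.537 (0.198 to 1.46). The 2 ratios were not adjusted for their number. Their intervals treat the lines as independent, although the common peaks of the lines overlap each other by definition. Motif shares were 32.0% and 33.1% of common peaks, and 23.4% of K562-only and 9.27% of HepG2-only peaks.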

How the results depend on the processing

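Differences had to keep their direction and their side of the threshold, and shares to stay within the counting interval. Step counts had to stay within a set fold range. Of 83 alternatives, 75 did so. The promoter contrasts of common and line-only peaks, the coding gene shares, the line-only and promoter shares by arm and the widths of common pairs were among them under every alternative run for each. Merging intervals within 100 bp gave chromosome 20 6.36% of the HepG2 lower-confidence list. Comparing the lower-confidence lists with each other raised the K562-only share to 31.6% and the HepG2-only share to 81.9%, and the HepG2 common share was 18.1%. The K562 motif contrast was 10.3 points with runs of at least 2 G, past the threshold, and -12.5 points in windows of 200 bp, a reversal; the cause was not tested. The difference of the block at 62 to 63 Mb was 6.75 points (2.12 to 10.6) with a width minimum of 50 bp. For the shifted block it was 8.98 points. Both are a description, since the block was named with its counts known. The alternatives for the genes by arm, the paired widths and the step counts were chosen after seeing the data. Leaving out a replicate could not be run, since each list pools its replicates. No paired analysis was possible because the lists carry no replicate values. Depth is unknown, and a missing interval says only that no peak was listed.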
